A study of Mus musculus with 8 samples.

Results

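The VEGF and angiopoietin systems are represented here by 10 genes: the VEGF family ligands Vegfb, Vegfc and Pgf, their receptors Flt1, Kdr and Flt4, the angiopoietins Angpt1 and Angpt2, and the Tie receptors Tek and Tie1. Vegfa is not among these 10 genes, and statements about the group do not cover it. The genes were listed by name, with earlier results of these data known. For each gene, the brightest probe named by a RefSeq transcript and well above background on at least 4 of 8 arrays was taken. All 10 genes had such a probe, among 15156 genes with one and 34038 retained probes. Kdr had 2 retained probes and each other gene had 1. Each of these probes was well above background on all 8 arrays, with no saturated spot.

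Ventricles of male C57BL\6 mice were compared between 4 MI and 4 sham-operated mice, each on its own array. MI mice had undergone a permanent occlusion of the anterior interventricular artery. Sham-operated mice had the same surgery with no ligature on the artery, and all 8 hearts were collected 24 hours after surgery. The labels name the ventricles as the tissue, and no separation of infarcted from spared myocardium is described.

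VEGF ligands act on receptor tyrosine kinases that are found mainly on endothelial cells. Kdr carries most of the angiogenic signal, Flt1 binds Pgf and Vegfb and also acts as a decoy, and Flt4 is the receptor of Vegfc and is best known from lymphatic vessels. Angpt1, made by cells around the vessel, activates Tek and keeps vessels quiescent, whereas Angpt2, released by activated endothelium, opposes it in many settings. Tie1 has no well established ligand of its own and modulates Tek.

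Signals are given on a log2 scale after each array was shifted by its spike-in probes, which carry RNA added in known amounts before labeling. Groups were compared with limma, which moderates the variance of each probe with that of all probes. A probe was called when its limma p was under 0.05 after a Benjamini-Hochberg adjustment that covered all 34038 probes. A second scaling, by the 75th percentile of each array's signals, is given where it bears on a call. After the spike-in shift, the 75th percentile itself ranged from 8.34 to 9.03 between arrays, and this movement of whole arrays enters the spread of every gene. The median SD of the 10 genes was 0.34 in sham-operated mice and 0.35 in MI mice with the spike-in shift, against 0.17 and 0.15 with the 75th percentile. The median difference of all probes between MI and sham-operated mice was 0.13 with the spike-in shift and -0.02 with the 75th percentile, and changes are to be read relative to it. All 8 arrays lay on 1 slide in 2 rows with 2 mice of each group in each row, and the share of spots well above background was 58.6% to 66.4%.

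With the spike-in shift, Pgf and Angpt2 were called higher in MI mice, and no gene of the group was called lower. These were 2 of the 10 genes, beside 5.76% of all probes called. Both rose by more than 2-fold, as 4.63% of all probes changed in either direction. A spike-in fit that adds a constant of 166 to 256 to the signals of an array, and so holds back dim signals, gave smaller rises of 1.84 for Pgf (limma adjusted p = 0.0062) and 0.97 for Angpt2 (limma adjusted p = 0.00814), the latter just under 2-fold. Both had groups that did not overlap, as 10.5% of all probes did. The differences were above 0 for 5 genes and below 0 for 5 genes, with a median of 0.16. With the 75th percentile scaling, 4 of the 10 genes were called beside 17.5% of all probes. Pgf, Angpt2 and Flt4 were then higher, beside 8.7% of all probes called higher, and Flt1 was lower in MI mice, beside 8.84% called lower. Pgf and Angpt2 again passed 2-fold, beside 4.24% of all probes, and 5 genes did not overlap between groups beside 23.7% of all probes. Of all called probes, 88.1% were higher in MI mice with the spike-in shift and 49.6% with the 75th percentile, so that a direction close to 0 depends on the scaling.

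**Figure D1:**
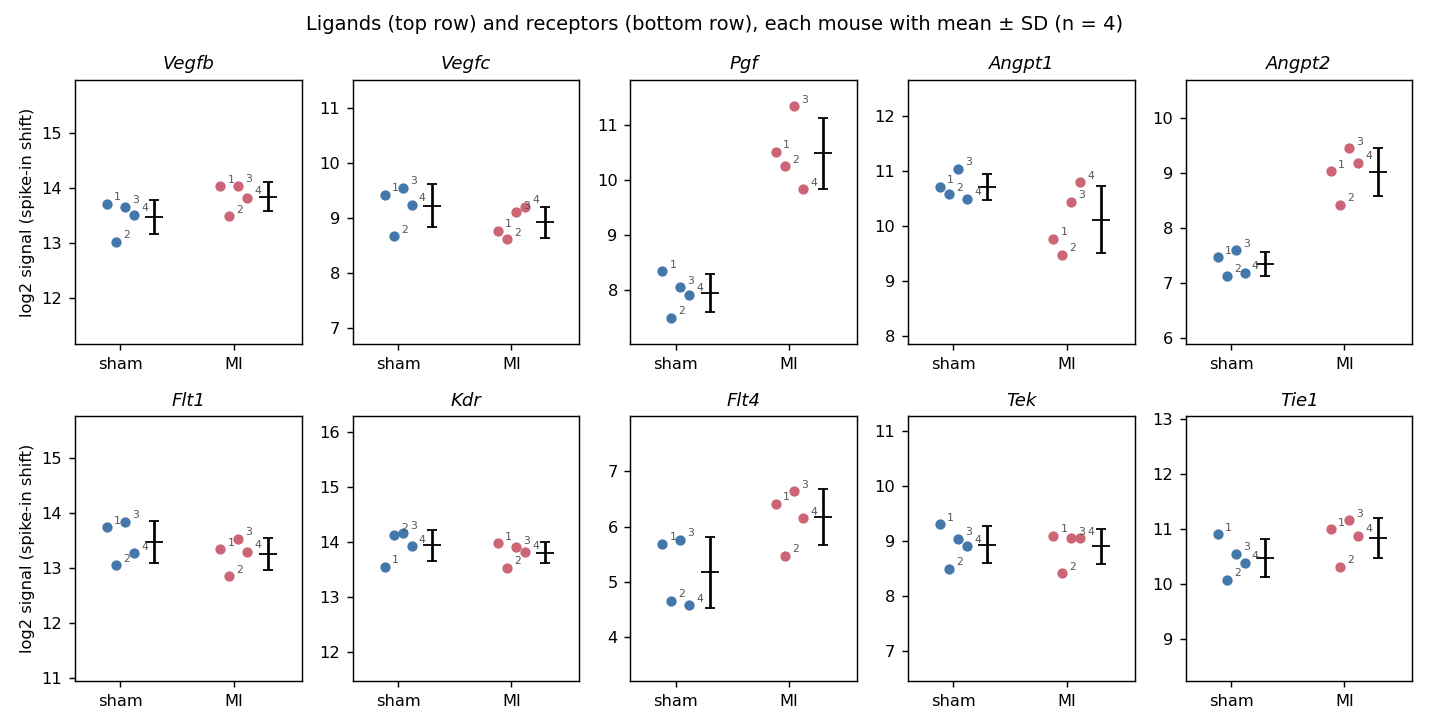
Log2 signal after the spike-in shift (vertical axis) of the 5 ligands and 5 receptors in each mouse, with numbers marking the replicate and bars giving mean ± SD (n = 4 mice per group). All panels span the same range of log2 units, and the MI mice lie apart from the sham-operated mice for Pgf and Angpt2.

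Pgf, a ligand of Flt1 that is released in injured tissue, showed the largest difference of the group. The Pgf signal was 8.34, 7.50, 8.05 and 7.92 in sham-operated mice 1 to 4 and 10.51, 10.25, 11.34 and 9.83 in MI mice 1 to 4. The lowest MI mouse, replicate 4, lay above the highest sham-operated mouse, replicate 1. The means were 7.95 ± 0.35 and 10.48 ± 0.64 (SD, n = 4 mice each), a rise of 2.53 on the log2 scale (SE 0.30, limma adjusted p = 4.08e-05) or 5.76-fold. The exact two-sided permutation test gave p = 0.0286, the smallest that 4 mice against 4 mice allow. The rise was 2.37 (SE 0.26, limma adjusted p = 0.000867) with the 75th percentile scaling. Leaving out each mouse in turn gave rises from 2.24 to 2.74, called in 8 of 8 cases, and the 2 rows of arrays gave 2.45 and 2.60.

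Vegfb and Vegfc did not pass the test. Vegfb, a ligand of Flt1 that the cardiomyocyte makes in large amounts, had signals of 13.71, 13.03, 13.66 and 13.51 in sham-operated mice 1 to 4 and 14.03, 13.49, 14.04 and 13.82 in MI mice 1 to 4. The groups overlapped, since MI mouse 2 lay below sham-operated mice 1, 3 and 4. The difference of means was 0.37 (SE 0.24, limma adjusted p = 0.49), with a 95% interval from -0.15 to 0.88. With the 75th percentile scaling the groups did not overlap, and the difference of 0.22 (SE 0.10) still missed the threshold (limma adjusted p = 0.17).

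Vegfc, the main ligand of Flt4, had signals of 9.42, 8.67, 9.55 and 9.24 in sham-operated mice 1 to 4 and 8.77, 8.61, 9.10 and 9.20 in MI mice 1 to 4. Sham-operated mouse 2 lay among the MI mice, while the other sham-operated mice lay above all of them. The difference of means was -0.30 (SE 0.25, limma adjusted p = 0.616, 95% interval -0.84 to 0.24). It was -0.45 (SE 0.14, limma adjusted p = 0.0595) with the 75th percentile scaling, and this scaling called Vegfc only without MI mouse 4 (difference -0.53, limma adjusted p = 0.0392).

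Promoter sequences of Pgf and Vegfb are shown because both encode ligands of Flt1 and only Pgf was called. RefSeq windows (GRCm38.p6) of 250 bases before and 50 bases after each start site were searched on both strands for the core of the hypoxia response element (ACGTG or GCGTG), the ETS core (CGGAA) and the AP-1 site (TGANTCA). The table held 9 windows for 8 of the 10 genes, all but Angpt1 and Angpt2. The 250 bases before each start site are printed 5′ to 3′, and capitals mark the matches, all of which are hypoxia response cores read on either strand.
Pgf upstream start site, chr12:85177314-85177563, minus strand: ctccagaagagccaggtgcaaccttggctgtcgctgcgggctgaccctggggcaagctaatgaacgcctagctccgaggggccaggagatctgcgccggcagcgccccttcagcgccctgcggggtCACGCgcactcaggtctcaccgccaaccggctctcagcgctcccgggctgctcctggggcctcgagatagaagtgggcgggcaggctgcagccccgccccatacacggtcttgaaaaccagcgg
Pgf downstream start site, chr12:85175983-85176232, minus strand: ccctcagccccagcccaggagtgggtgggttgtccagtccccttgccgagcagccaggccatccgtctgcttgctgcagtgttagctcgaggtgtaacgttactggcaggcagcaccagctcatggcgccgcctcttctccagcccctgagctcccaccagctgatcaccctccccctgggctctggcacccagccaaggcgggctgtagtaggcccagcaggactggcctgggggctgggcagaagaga
Vegfb start site, chr19:6987652-6987901, minus strand: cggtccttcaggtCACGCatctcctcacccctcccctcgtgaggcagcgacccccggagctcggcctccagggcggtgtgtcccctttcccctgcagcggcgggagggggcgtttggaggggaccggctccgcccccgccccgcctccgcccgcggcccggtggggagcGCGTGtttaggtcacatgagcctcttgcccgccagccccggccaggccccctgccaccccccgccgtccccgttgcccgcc

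The upstream start site of Pgf had 1 match, CACGC at position -124, and the downstream start site had none. Vegfb had 2 matches, CACGC at -237 and GCGTG at -81. Among the receptors, Flt1 had CACGC at -184 and Kdr had GCGTG at -131 and at -89. Of all 32851 promoter windows, 43.8% held a hypoxia response core. An ETS core, found in 29.9% of all windows, was present in Kdr (TTCCG at -153) and Tie1 (CGGAA at -232). No window of the 8 genes held the AP-1 letters, found in 7.81% of all windows. A match is a description of letters and not of a bound site.

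Of the opposed Tek ligands, Angpt2 rose in MI mice and Angpt1 was not called. Angpt2, the antagonist that endothelial cells store and release, had signals of 7.47, 7.14, 7.60 and 7.19 in sham-operated mice 1 to 4 and 9.03, 8.42, 9.45 and 9.19 in MI mice 1 to 4. The groups did not overlap, and MI mouse 2 was the lowest of its group. Angpt2 rose by 1.67 on the log2 scale (SE 0.26, limma adjusted p = 0.000454), or 3.18-fold, from 7.35 ± 0.22 to 9.02 ± 0.44 (SD, n = 4 mice each). The exact two-sided permutation test gave p = 0.0286. The rise was 1.52 (SE 0.12, limma adjusted p = 0.000301) with the 75th percentile scaling, and it lay between 1.53 and 1.87 when single mice were left out. The rows of arrays gave 1.42 and 1.92.

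Angpt1 is the Tek agonist made by perivascular cells. Its signals were 10.72, 10.58, 11.04 and 10.50 in sham-operated mice 1 to 4 and 9.77, 9.48, 10.44 and 10.80 in MI mice 1 to 4. MI mice 1, 2 and 3 lay below every sham-operated mouse, whereas MI mouse 4 lay above sham-operated mice 1, 2 and 4. The difference of means was -0.58 (SE 0.29, limma adjusted p = 0.309, 95% interval -1.19 to 0.02), and it was -1.02 in the row of arrays with MI mice 1 and 2 and -0.15 in the row with MI mice 3 and 4. It was -0.74 (SE 0.23, limma adjusted p = 0.056) with the 75th percentile scaling. That scaling called Angpt1 without MI mouse 4 (difference -0.95, limma adjusted p = 0.01) and in no other case of a mouse left out.

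**Figure D2:**
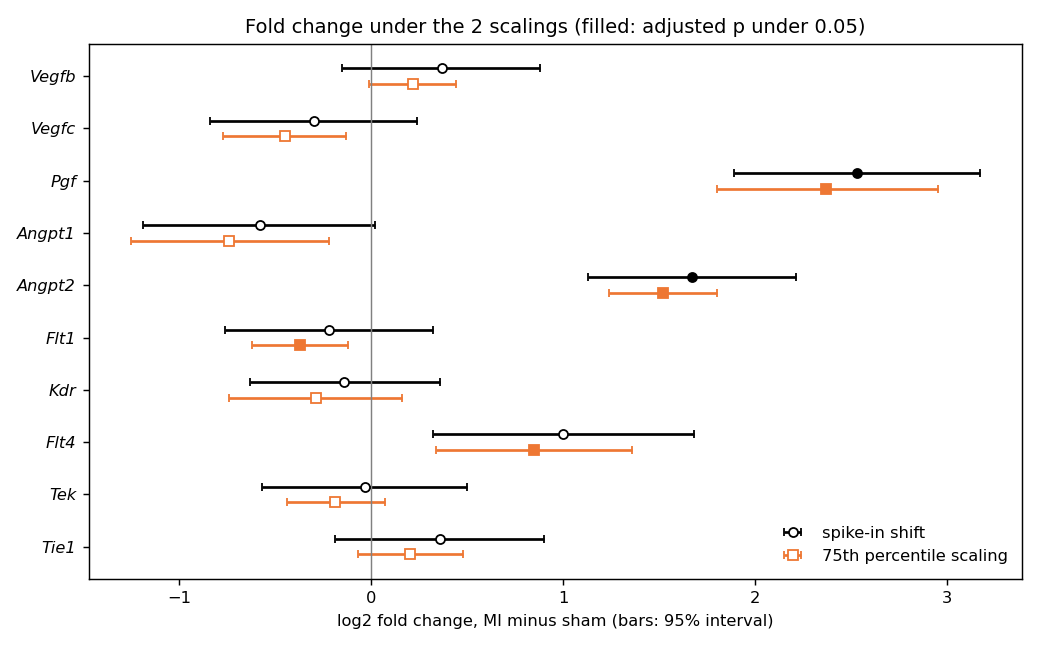
Log2 fold change of MI over sham-operated mice (horizontal axis) of each gene with its 95% interval, after the spike-in shift (black circles) and after scaling to the 75th percentile (orange squares), n = 4 mice per group. Filled symbols have a limma adjusted p under 0.05, and the intervals of Pgf and Angpt2 lie far above 0 under both scalings.

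None of the 5 receptors was called with the spike-in shift. Flt1, the receptor shared by Pgf and Vegfb, had signals of 13.74, 13.05, 13.84 and 13.27 in sham-operated mice 1 to 4 and 13.34, 12.85, 13.53 and 13.29 in MI mice 1 to 4, and the groups overlapped. The difference was -0.22 (SE 0.25, limma adjusted p = 0.733, 95% interval -0.76 to 0.32). After scaling to the 75th percentile, the Flt1 signals were 13.67, 13.45, 13.71 and 13.39 in sham-operated mice and 13.11, 13.20, 13.25 and 13.17 in MI mice. The groups then did not overlap, and Flt1 was 1.29-fold lower in MI mice (difference -0.37, SE 0.11, limma adjusted p = 0.0471). This call was lost with any mouse left out, with limma adjusted p between 0.0555 and 0.119.

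Kdr, the main signaling receptor of blood vessel endothelium, had signals of 13.55, 14.13, 14.16 and 13.92 in sham-operated mice 1 to 4 and 13.97, 13.53, 13.90 and 13.81 in MI mice 1 to 4. The groups overlapped, and sham-operated mouse 1 was close to the lowest MI mouse. The difference was -0.14 (SE 0.23, limma adjusted p = 0.835, 95% interval -0.63 to 0.36), and -0.29 with the 75th percentile scaling. On the dimmer Kdr probe the difference was -0.05 (SE 0.28, limma adjusted p = 0.96). The 2 probes placed sham-operated mouse 1 differently, which was the lowest of its group on the brighter probe (13.55) and the highest on the dimmer probe (11.55).

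Flt4, the Vegfc receptor, was the dimmest of the 10 genes, with a mean intensity of 37.6 in sham-operated mice and 77.1 in MI mice before scaling. Its signals were 5.69, 4.65, 5.76 and 4.57 in sham-operated mice 1 to 4 and 6.41, 5.47, 6.64 and 6.15 in MI mice 1 to 4. MI mouse 2 lay within the range of the sham-operated mice. The difference was 1.00 (SE 0.32, limma adjusted p = 0.0891, 95% interval 0.32 to 1.68), and it was called without sham-operated mouse 1 (limma adjusted p = 0.044) and without MI mouse 2 (limma adjusted p = 0.0439). It was 0.20 (limma adjusted p = 0.367) in the spike-in fit with additive constants and 0.31 (limma adjusted p = 0.625) after the normexp background correction with an offset of 50, both of which hold back dim signals. With the 75th percentile scaling Flt4 was 1.80-fold higher in MI mice (difference 0.85, SE 0.23, limma adjusted p = 0.0321), with groups that did not overlap. That call was lost without sham-operated mouse 2 or 4 and without MI mouse 1, 3 or 4, with limma adjusted p up to 0.0886. Flt4 was also called after quantile normalization (difference 0.80, limma adjusted p = 0.0301) and with the replicate block (limma adjusted p = 0.0186). The same held among probes well above background on all 8 arrays (limma adjusted p = 0.0329). Over all alternatives Flt4 was called in 10 and not called in 19.

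The Tie receptors were not called under either scaling. Tek, the angiopoietin receptor, had signals of 9.31, 8.50, 9.04 and 8.91 in sham-operated mice 1 to 4 and 9.10, 8.42, 9.05 and 9.05 in MI mice 1 to 4. The difference was -0.03 (SE 0.25, limma adjusted p = 0.968, 95% interval -0.57 to 0.50), and -0.19 (SE 0.11, limma adjusted p = 0.3) with the 75th percentile scaling. Tie1, its partner, had signals of 10.90, 10.08, 10.55 and 10.38 in sham-operated mice 1 to 4 and 10.99, 10.31, 11.16 and 10.88 in MI mice 1 to 4. The groups of both genes overlapped. The Tie1 difference was 0.36 (SE 0.26, limma adjusted p = 0.541, 95% interval -0.19 to 0.90), and 0.20 (SE 0.12, limma adjusted p = 0.286) with the 75th percentile scaling.

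Differences between a pair of these genes within a mouse cancel any shift of the whole array. A log2 difference between probes of different genes does not give the ratio of their transcripts, because probes differ in brightness, but its change between groups can be compared. Of 5 pairs, 4 changed between MI and sham-operated mice, each with groups that did not overlap. The share of all gene pairs without overlap was not computed. Of single probes, 23.7% did not overlap with the 75th percentile scaling. Each of the 4 pairs had an exact two-sided permutation p of 0.0286, which is the smallest possible with 4 mice against 4 mice. After the Benjamini-Hochberg adjustment over the 5 pairs it was 0.0357. This adjusted value depends on how many pairs reach the smallest p, since 1 pair alone would have 0.143. Angpt2 minus Angpt1 and Pgf minus Vegfb each hold a gene already called, so their changes are not separate from its rise. The pairs were chosen with earlier results of these data known.

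Angpt2 minus Angpt1, which sets the Tek antagonist against the agonist, was -3.25, -3.44, -3.43 and -3.32 in sham-operated mice 1 to 4 and -0.75, -1.06, -1.0 and -1.62 in MI mice 1 to 4. The sham-operated mice lay close together, at -3.36 ± 0.09, and the MI mice at -1.11 ± 0.37 (SD, n = 4 mice each). The difference rose by 2.25, or 4.77-fold as a ratio, and by 2.13 to 2.42 when single mice were left out.

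Pgf minus Vegfb, which sets the Flt1 ligands against each other, was -5.37, -5.53, -5.61 and -5.58 in sham-operated mice 1 to 4 and -3.53, -3.24, -2.70 and -3.99 in MI mice 1 to 4. All MI mice lay above all sham-operated mice by more than the range of the sham-operated group. The means were -5.52 ± 0.11 and -3.36 ± 0.54 (SD, n = 4 mice each), a rise of 2.16, or 4.47-fold as a ratio.

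Tek minus Tie1 fell by a small amount that was nevertheless larger than the spread. The values were -1.59, -1.58, -1.51 and -1.47 in sham-operated mice 1 to 4 and -1.89, -1.88, -2.11 and -1.83 in MI mice 1 to 4. The means were -1.54 ± 0.06 and -1.93 ± 0.13 (SD, n = 4 mice each), a change of -0.39, or a 1.31-fold fall of the ratio. The rows of arrays gave -0.30 and -0.48.

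Vegfc minus Flt4, the lymphatic ligand against its receptor, was 3.74, 4.02, 3.79 and 4.67 in sham-operated mice 1 to 4 and 2.36, 3.14, 2.46 and 3.05 in MI mice 1 to 4. The means were 4.05 ± 0.43 and 2.75 ± 0.40 (SD, n = 4 mice each), a change of -1.30, or a 2.46-fold fall of the ratio. The call rests on the dim Flt4 probe, and it was lost in 2 settings that hold back dim signals, the spike-in fit with additive constants (-0.43, exact permutation p adjusted over the pairs 0.0714) and the normexp correction (-0.58, exact permutation p adjusted over the pairs 0.0714).

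Flt1 minus Kdr did not differ beyond the spread. The values were 0.19, -1.08, -0.32 and -0.65 in sham-operated mice 1 to 4 and -0.63, -0.68, -0.37 and -0.52 in MI mice 1 to 4, with sham-operated mouse 1 the highest of all 8 mice. The change was -0.08 (exact permutation p = 0.771) and turned to 0.13 without sham-operated mouse 1.

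**Figure D3:**
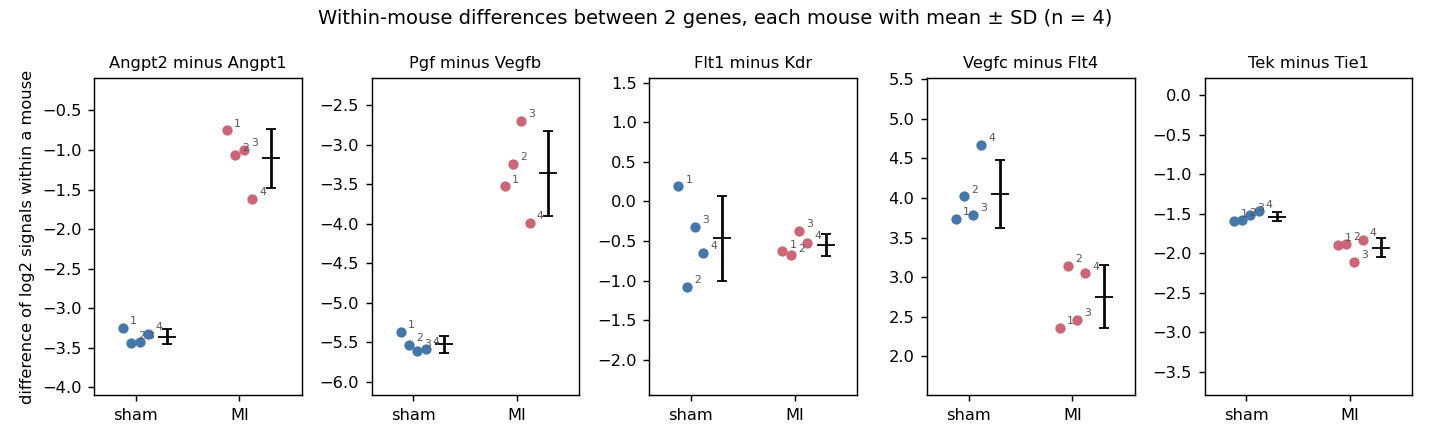
Difference between the log2 signals of the paired genes within each mouse (vertical axis), with numbers marking the replicate and bars giving mean ± SD (n = 4 mice per group). Sham-operated and MI mice are apart for all pairs but Flt1 minus Kdr.

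The receptors are made mostly by endothelial cells, and in RNA of ventricle tissue fewer endothelial cells and less RNA per endothelial cell cannot be told apart. Each receptor was therefore also set against the mean of 16 endothelial markers within each mouse. None of the 16 markers was called with the spike-in shift, beside 5.76% of all probes. Their median difference was 0.09, from -0.60 (Sox17) to 0.68 (Pecam1), and their mean level was 10.95 to 11.56 in sham-operated mice and 11.15 to 11.61 in MI mice. With the 75th percentile scaling, Pecam1, an adhesion protein of endothelial junctions that leukocytes and platelets also carry, was called higher (0.53, limma adjusted p = 0.0389), and Sox17, a transcription factor of arterial endothelium, was called lower (-0.76, limma adjusted p = 0.0268). These were 2 of 16 markers beside 17.5% of all probes. Pecam1 was kept in 2 and Sox17 in 3 of the 8 cases with a mouse left out at that scaling. The replicate block at that scaling called 0 markers, beside 3914 of 34037 probes.

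No receptor passed against the endothelial markers after adjustment over the 5 receptors. The smallest possible exact permutation p of 0.0286, reached by 1 receptor alone, becomes 0.143 after this adjustment. A single receptor therefore could not pass, whatever its change. Flt4 minus the markers was -5.82, -6.30, -5.80 and -6.78 in sham-operated mice 1 to 4 and -5.06, -5.69, -4.97 and -5.41 in MI mice 1 to 4, groups that did not overlap. The change was 0.89, with an exact permutation p of 0.0286 and 0.143 after adjustment, and it was 0.13 in the spike-in fit with additive constants and 0.22 after normexp. Flt1 changed by -0.33 against the markers (exact permutation p = 0.0571, adjusted 0.143) and Tie1 by 0.25 (exact permutation p = 0.114, adjusted 0.19). Kdr changed by -0.24 (exact permutation p = 0.4) and Tek by -0.14 (exact permutation p = 0.286).

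Among 22 partners of the pathway, namely coreceptors, ligand-processing proteins, adaptors, inhibitors and Notch and ephrin genes of vessel growth, 21 were retained, 4 were called higher in MI mice and none was called lower. The background was 5.08% of all probes called higher and 0.687% called lower. The median difference of the list was 0.14. The count of called partners was 0 with the methods' t-test after adjustment, beside 761 of all 34038 probes. It was 7 with normexp, beside 2047 of all probes, and 7 with quantile normalization, beside 6142. Thbs1, a matrix protein that restrains angiogenesis, rose by 1.89 (SE 0.34, limma adjusted p = 0.00193), and the sham-operated mice (9.81 to 11.34) lay below the MI mice (11.45 to 12.77). Dll4, the Notch ligand of sprouting tip cells, rose by 1.41 (SE 0.29, limma adjusted p = 0.00571) from a dim 6.31 ± 0.54 to 7.73 ± 0.38 (SD, n = 4 mice each). Shb, an adaptor that binds Kdr, rose by 1.13 (SE 0.24, limma adjusted p = 0.00886). Dok2, an adaptor that binds Tek and is also made by leukocytes, was higher by 0.89 (SE 0.25, limma adjusted p = 0.0495), but this call was kept in only 2 of the 8 cases with a mouse left out, without sham-operated mouse 1 and without MI mouse 2.

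The other partners gave no call with the spike-in shift. The coreceptors Nrp1 and Nrp2 differed by -0.05 and 0.28 (limma adjusted p = 0.956 and 0.606). Vegfd, a second ligand of Flt4, differed by -0.82 (limma adjusted p = 0.201), and Hey1, a transcription factor downstream of Notch, by -1.0 (limma adjusted p = 0.0891). Scaling to the 75th percentile gave 6 partners called higher and 2 called lower, beside 8.7% and 8.84% of all probes. Those called lower were Vegfd (-0.97, limma adjusted p = 0.0424) and Hey1 (-1.15, limma adjusted p = 0.0326), and those added on the higher side were Plvap, a protein of endothelial fenestrae, with 0.67 (limma adjusted p = 0.0295) and the kinase Akt1 with 0.45 (limma adjusted p = 0.0483). Each of these 4 calls was kept in only 2 of the 8 cases with a mouse left out.

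Of 15 genes tied to sprouting or known to respond to VEGF in endothelial cells, 14 were retained and 9 were called higher in MI mice, beside 5.08% of all probes. None was called lower, and the median difference was 1.30. Apln, the apelin peptide of tip cells, rose by 2.70 (SE 0.26, limma adjusted p = 4.64e-06), with 7.49 to 7.83 in sham-operated mice and 9.83 to 10.73 in MI mice. Selp, the P-selectin that captures leukocytes on activated endothelium, rose by 2.92 (SE 0.31, limma adjusted p = 1.05e-05). Sele, the E-selectin, was well above background in 1 of 4 sham-operated mice and in 4 of 4 MI mice, so that it passed the detection filter through the MI group and its fitted difference of 3.15 gives no measured fold. Without Sele, 8 of 13 genes were called higher, with a median of 1.29. Angptl4, a secreted inhibitor of lipoprotein lipase, rose by 2.07 (SE 0.44, limma adjusted p = 0.00794), a call lost in the spike-in fit with additive constants (limma adjusted p = 0.0832) and in 4 of the 8 cases with a mouse left out at the 75th percentile scaling.

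The other called genes of this list were Icam1 (1.68), Kcne3 (1.38), Cxcr4 (1.31), Adamts1 (1.29) and Rcan1 (1.28). Not called with the spike-in shift, though above 0, were Esm1 (0.89, limma adjusted p = 0.231) and Unc5b (0.68, limma adjusted p = 0.204). The same held for Aplnr (0.67, limma adjusted p = 0.146) and Vcam1 (0.65, limma adjusted p = 0.178). The call of Icam1 was lost in the spike-in fit with additive constants (limma adjusted p = 0.0699). Icam1, Selp and Sele are also induced by inflammatory cytokines, and Cxcr4 is also made by leukocytes. Only Nr4a1, an immediate early transcription factor, differed below 0 in this list (-1.14, limma adjusted p = 0.14). Under the other scaling 10 of the 14 were called higher, beside 8.7% of all probes, and none lower, with a median of 1.15. The methods' t-test after adjustment called 5, beside 761 of all 34038 probes.

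**Figure D4:**
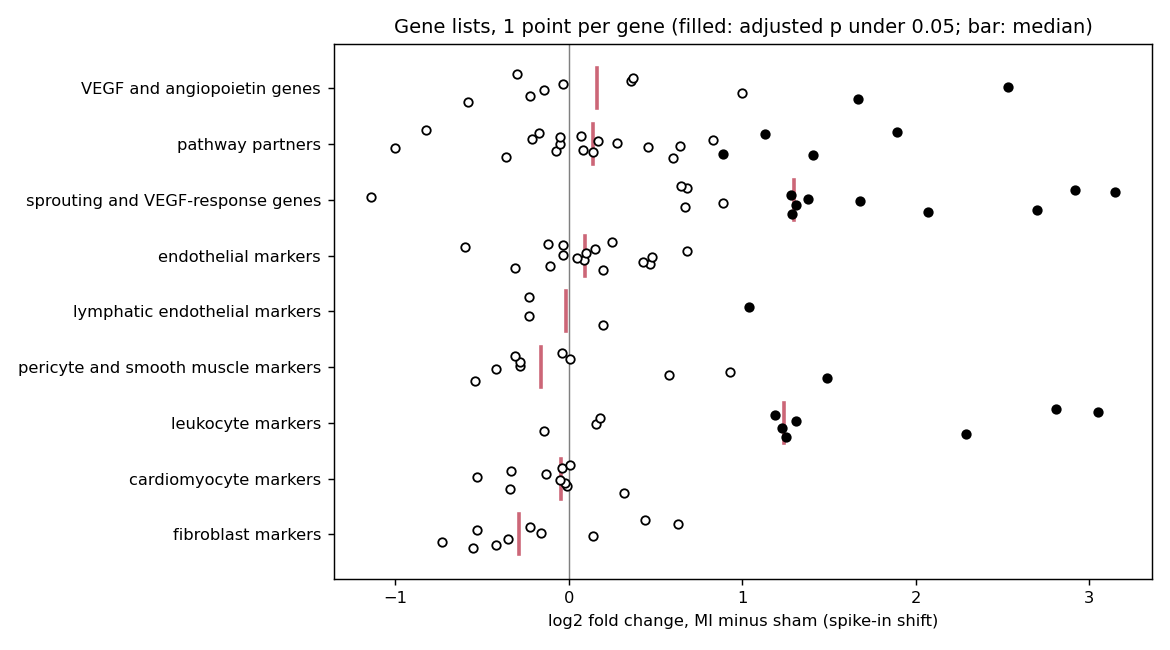
Log2 fold change of MI over sham-operated mice after the spike-in shift (horizontal axis) for each gene of each list, 1 point per gene, with filled points for a limma adjusted p under 0.05 and bars for the median of the list. The medians lie at 1.30 for sprouting and VEGF-response genes and 1.24 for leukocyte markers, and between -0.29 and 0.16 for the other lists.

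Markers of other cell types were read beside these results. Of 12 leukocyte markers, 10 had a retained probe, 7 were called higher and none lower, beside 5.08% and 0.687% of all probes, with a median difference of 1.24. Their mean level was 10.70 to 11.16 in sham-operated mice and 12.06 to 12.37 in MI mice. S100a8, a calcium-binding protein of neutrophils and monocytes, rose by 3.05 (SE 0.24, limma adjusted p = 6.21e-07), S100a9 by 2.81, the monocyte receptor Cd14 by 2.29 and the integrin chain Itgb2 by 1.31. The macrophage receptor Csf1r (-0.14), the myeloid integrin chain Itgam (0.16) and the lysozyme gene Lyz2 (0.18) were not called. Each was read on its brightest probe only. The Itgam probe had a mean of 14.71 in sham-operated mice, beside 6.89 for the leukocyte gene Ptprc. The paper lists Itgam among its differentially expressed genes, so the value of this probe may not stand for the gene. Cd68 and Ly6g had no RefSeq-named probe. Of the retained leukocyte markers, 7 of 10 were thus higher in the same group as Pgf, Angpt2 and the sprouting list, and the part of leukocytes in these results was not tested.

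None of 10 cardiomyocyte markers was called with the spike-in shift (median -0.05), beside 5.76% of all probes. Their mean levels were 17.37 to 17.90 in sham-operated mice and 17.18 to 17.80 in MI mice. With the 75th percentile scaling 1 was called lower, beside 8.84% of all probes. None of 10 fibroblast markers was called under either scaling, beside 5.76% of all probes with the spike-in shift and 17.5% with the 75th percentile. Their medians were -0.29 with the spike-in shift and -0.44 with the 75th percentile. Of 6 lymphatic endothelial markers, 4 were retained and 1 was called higher with the spike-in shift, beside 5.08% of all probes. Pdpn, a membrane glycoprotein also made by fibroblasts and macrophages, was called higher by 1.04 (SE 0.29, limma adjusted p = 0.0441), a call kept in 3 of the 8 cases with a mouse left out, without sham-operated mouse 3, MI mouse 2 or MI mouse 3. Lyve1, a hyaluronan receptor of lymphatic endothelium and resident macrophages, differed by 0.20, and Prox1 and Mmrn1, which are closer to lymphatic identity, by -0.23 each, beside the Flt4 difference of 1.00.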

How the data were processed

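RNA of ventricles from 4 MI and 4 sham-operated mice was hybridized to 1-colour Agilent mouse SurePrint G3 arrays, 1 array per mouse, and groups were taken from the sample labels. The deposited intensities were, per the file headers, processed signals of Feature Extraction 11.0.1.1: background subtracted, spatially detrended and not normalized between arrays. The authors' deposited log2 values came from the same scans with limma and vsn on the spike-in probes, without spots not above background. Set against the scanner signals, each column had a slope of 0.994 to 0.999 and thus a log2 scale and the same direction, with medians of 7.48 to 8.07. No centring of genes was seen, and 38.9% of the values were empty. They served as an alternative.

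Values computed here are log2 processed signals minus the median shift of 7 spike-in probes (234 spots) on each array. Outlier spots were left out, spots of a probe averaged, and 34038 of 55681 probes well above background on at least 4 arrays kept. MI was tested against sham in limma 3.58.1 (R 4.3.3) without covariates. An exact two-sided permutation test was applied to single values (Python 3.11.15, scipy 1.17.1, numpy 2.4.6, pandas 2.3.3), and figures were drawn in matplotlib 3.10.9. Significance analysis of microarrays, which the methods used, was not run here. The limma step was tested on simulated data. It recovered 99% of the changes of 2 on the log2 scale and 22% of the changes of 1. A gene that was not called can thus still differ by about 1. Precision is limited by the number of arrays.

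Probes were named through RefSeq transcripts of GRCm38.p6 (26582 probes), and the coordinates of promoters are of that build. The array was designed on mm9, and no gene coordinate is given. The genes named are the 10 members, the called genes of each list with the 4 largest folds, and for Flt1, Kdr, Tek and Tie1 the 2 genes most correlated with each, of which 1 is not reported here. Other list genes were named after their values were seen. The members, pairs and lists were chosen with earlier results of these data known. Alternatives were scaling to the 75th percentile, a spike-in fit with additive constants, quantile normalization, the authors' values, normexp on median intensities, other detection filters, undetected spots treated as missing, the methods' t-test, a replicate block, an array row block, and each mouse left out. The 75th percentile scaling combined with mice left out or blocks, list counts under each alternative and a list count without genes undetected in some mice were added after the data were seen.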

Additional observations from a re-analysis of the deposited data

Results flagged for a closer look

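The Tek signal of MI mouse 2 was 8.42, beside 9.05 to 9.10 in the other 3 MI mice. The gap to the nearest mouse was 0.928 of the range of the group, above the 95% critical value of Dixon's test for 4 values. This was 1 flag among 40 groups of 4 values examined, and chance alone gives some flags at that level. After scaling to the 75th percentile the Tek signal of MI mouse 2 was 8.77, beside 8.77, 8.87 and 8.93 in the other MI mice.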

How the results depend on the processing

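Pgf and Angpt2 were called higher under each of the 29 alternatives that gave them a value, and Vegfb, Tie1, Tek and Kdr under none. The count of called genes of the group was 4 with the 75th percentile scaling and 2 to 4 with a mouse left out under either scaling. Over all probes, the 1962 calls became 5973 with the 75th percentile, 6142 with quantile normalization, 1271 with the spike-in fit with additive constants, 1055 without a detection filter, and 761 with the methods' t-test after Benjamini-Hochberg adjustment (5024 unadjusted), and ranged from 1391 to 2560 with a mouse left out. The 1577 calls over 2-fold became 333 with additive constants, 1013 with the authors' values, 630 with normexp, 1041 without a filter and 659 with the methods' t-test, and ranged from 1285 to 1928 with a mouse left out. Tek ranged from -0.18 to 0.13 and Flt1 minus Kdr from -0.29 to 0.13 with a mouse left out, and Vegfc minus Flt4 fell to -0.43 with additive constants and -0.58 with normexp. The causes were not tested. With a mouse left out, the exact test of a pair cannot go below p = 0.0571. Over probes, the deviations of same-numbered mice had correlations of 0.196, 0.042, -0.073 and 0.007. These correlations do not register a shift of a whole array. After the spike-in shift, the 75th percentile was 8.81, 8.34, 8.87 and 8.62 in sham-operated mice 1 to 4. In MI mice 1 to 4 it was 8.97, 8.39, 9.03 and 8.86, the same order of replicates. Whether the numbers pair the samples cannot be told from these values. With the replicate block 4546 probes and 3 genes of the group (Pgf, Angpt2 and Flt4) were called, and the exact test of the pairs cannot go below p = 0.125. Dim probes such as Flt4, Dll4 and Sele are limited by signal over background.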

Other observations

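Pericyte and smooth muscle markers, which include cells that make Angpt1, were split. With the spike-in shift, Acta2, the smooth muscle actin that myofibroblasts also make, rose by 1.49 (SE 0.28, limma adjusted p = 0.00346), from 13.06 ± 0.32 to 14.55 ± 0.55 (SD, n = 4 mice each), and the other 9 of 10 genes were not called. The 1 call among 10 genes stood beside 5.76% of all probes, and the median difference was -0.16. After scaling to the 75th percentile 2 were called higher and 4 lower, beside 17.5% of all probes. Those called lower were Abcc9 (-0.70, limma adjusted p = 0.00455), Kcnj8 (-0.57, limma adjusted p = 0.0252), Rgs5 (-0.46, limma adjusted p = 0.0236) and Notch3 (-0.43, limma adjusted p = 0.0464). With a mouse left out at this scaling, Abcc9 was kept in 8 of 8 cases, Kcnj8 and Rgs5 in 4 and Notch3 in 2. Abcc9 and Kcnj8 are the subunits of the vascular ATP-sensitive potassium channel, and Rgs5 and Notch3 are known from pericytes. Cspg4, the NG2 proteoglycan, was called higher (0.78, limma adjusted p = 0.0204), as was Acta2, and these calls were kept in 4 and 6 of the 8 cases. Angpt1 differed by -0.74 at this scaling (limma adjusted p = 0.056).

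Within groups, on deviations from the group means after scaling to the 75th percentile, the genes closest to Tek over 8 mice were Esyt1 (Pearson r 0.991) and Tspan17 (0.986), among 14031 genes. For Tie1 they were Wdr25 (0.987) and Pars2 (0.983), for Flt1 Csnk1d (0.98) and Napepld (0.979), and for Kdr Tmem126a (0.997). These are descriptions with no test, chosen as the highest of many values over mice that share a slide.

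The brighter Kdr probe exceeded the dimmer one by 2.01 on the log2 scale in sham-operated mouse 1, by 3.09 to 3.71 in the other sham-operated mice and by 2.61 to 3.09 in the MI mice. The correlations of Kdr were computed on the brighter probe.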
